A study of Homo sapiens with 151 samples.

Results

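ZNF140 and ZNF334 are C2H2 zinc finger proteins with a KRAB domain that the study placed among its candidate repressors, and their binding in HepG2 cells was taken from the 2 peak lists whose labels name them, of 151 samples in all. The ZNF140 list held 4509 peaks and the ZNF334 list 889, of 1471857 peaks in 127 lists. HepG2 is a human liver cancer cell line. Each protein carried a FLAG epitope tag and was precipitated from formaldehyde-fixed cells with the anti-FLAG M2 antibody, and the DNA was sequenced (ChIP-seq). ZNF140 was called against an input library (DNA with no precipitation) shared with 11 of the other preferred lists, and ZNF334 against an input that no other list used. They were compared with the other lists of the 121 that the study prefers, each for 1 DNA-associated protein (DAP). Every list is 1 set of optimal calls, so there is no replicate error. The spread given is that between lists of different DAPs, and intervals on shares cover counting error only. The depth of sequencing is unknown.

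KRAB zinc finger proteins are the largest family of human transcription factors. Arrays of C2H2 fingers read long DNA sequences, and the KRAB domain recruits TRIM28 (KAP1), which brings the histone methyltransferase SETDB1 and heterochromatin proteins to the site. Many members of the family are known for binding transposable elements and the genes of other zinc finger proteins. Some, often older ones, bind promoters. Binding data from any DAP also hold peaks at places where very many DAPs are found together, so a protein's own sites are sought outside those places.

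Both lists were headed by the same few sites, and below these they parted. The strongest peak of each lay in an intron of NPAS4, a neuronal activity-dependent transcription factor, with a signal of 355 for ZNF140 and 329 for ZNF334, and 120 of the 121 preferred lists had a peak there. The signal is the enrichment value the authors gave each peak, used here only to rank peaks within a list. The second strongest of each lay in a coding exon of XKR7, a member of the XK family of membrane proteins (277 for ZNF140 and 265 for ZNF334, 120 lists), and the third in a coding exon of INSM2, a zinc finger gene of neuroendocrine cells (269 and 261, 119 lists). Of the sites shared by both lists, the next by rank lay in an intron of the lncRNA ENSG00000232413 (ranks 4 in ZNF140 and 5 in ZNF334, 118 lists) and in an exon of MIR7-3HG, a host transcript of the neuroendocrine miR-7 (ranks 6 and 7, 118 lists).

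These leading sites are shown because 5 of the 8 highest ranked shared ones carry RE1, the element bound by REST, a zinc finger repressor of neuronal genes in other tissues. REST itself is not among the lists analysed here. The lines give GRCh38 (hg38) sequence, 5′ to 3′ on the strand named, for these 5 sites, whose RE1 match lay within 50 bp of the ZNF140 summit, with the match in capitals and each site named by its nearest gene.
NPAS4 (chr11:66421787-66421815, minus strand): tgggTTCAGAACCATGGACAGAGCCatac
XKR7 (chr20:31968586-31968614, plus strand): cgccATCAGCACCAAGGACAGCGCCggcg
NKX1-1 (chr4:1410566-1410594, plus strand): cagcTTCAGCACTGCGAACAGCGCCagca
HTR5A (chr7:155070126-155070154, plus strand): aggtGGCAGCACCGCGGACAGCACCacat
LIN28A (chr1:26408693-26408721, plus strand): tcaaTTCAGCACCGTGGACAGAGCTgctg
HTR5A encodes a serotonin receptor, NKX1-1 a homeobox protein and LIN28A an RNA-binding protein of stem cells. NPAS4, XKR7 and HTR5A matches lay 20, 17 and 9 bp from the ZNF140 summit.

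RE1 matches, counted at no more than 2 mismatches on either strand of the window reaching 50 bp to either side of the summit, fell off with rank in both lists. They were found at 27 of the 50 strongest ZNF140 peaks (54.0%) and 21 of the 50 strongest ZNF334 peaks (42.0%), against a median of 36.0% and a range of 0 to 74.0% over the other lists. Among peaks ranked 401 to 889 they were found at 26 of 489 (5.32%) for ZNF140 and 2 of 489 (0.409%) for ZNF334. Over the 889 strongest peaks the share was 10.6% for ZNF140 (95% Wilson interval 8.72 to 12.8) and 3.49% for ZNF334 (2.47 to 4.91). Windows 200 bp to either side held a match in 0.0562% and 0.506%, the other lists had a median of 6.64% beside ZNF140 and 6.75% beside ZNF334, and 0.392% of all 212005 regions held one. ZNF140 thus stood 19th and ZNF334 87th of 114 lists in this share. Of the 155 RE1 peaks of the whole ZNF140 list 135 lay in highly bound regions and none was private, and of the 31 in ZNF334 30 did and 1 was private. The same sites accounted for 27 of the RE1 peaks of each list.

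**Figure D1:**
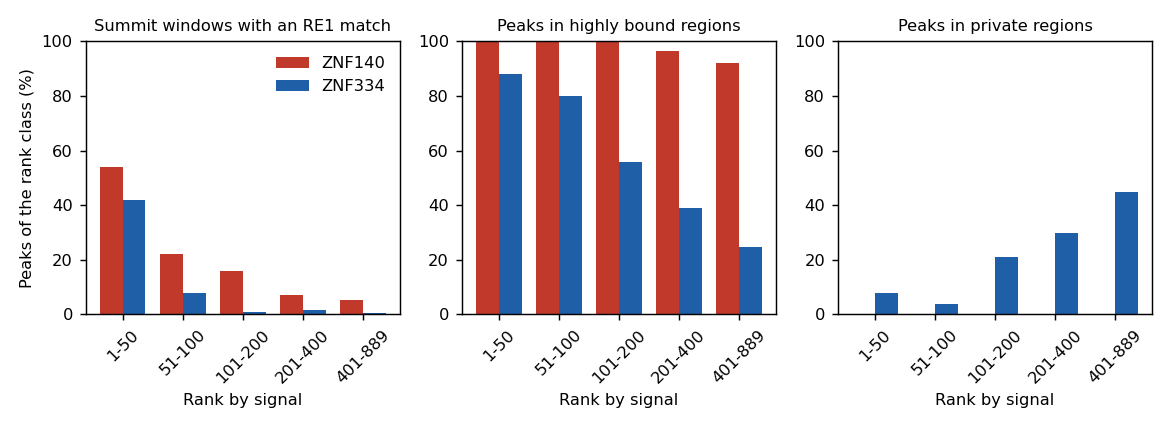
Share (%, y axis) of summit windows with an RE1 match, of peaks in highly bound regions and of peaks in private regions, for ZNF140 (red) and ZNF334 (blue) peaks classed by their rank in signal (x axis). RE1 matches were found in 54.0% of the 50 strongest ZNF140 peaks and 42.0% of the 50 strongest ZNF334 peaks and were scarce at low rank, and ZNF140 had no private peak among these ranks.

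Outside the strongest sites the lists differed in how many other DAPs shared their places. The central 100 bp of all preferred peaks were merged into regions, and a region with peaks of at least 31 lists (25%) is called highly bound and one with a single list private. ZNF140 had 3413 of its 4509 peaks in highly bound regions, and 49 (1.09%, interval 0.823 to 1.43) were private. ZNF334 had 338 of its 889 peaks in highly bound regions, and 306 (34.4%, interval 31.4 to 37.6) were private. A further 139 ZNF334 peaks (15.6%) lay in regions of 2 to 5 lists, against 132 (2.93%) for ZNF140. ZNF140 had the smallest private share of the 121 whole lists and ZNF334 the third largest, but whole lists differ in length. When the 83 other lists with at least as many peaks as ZNF140 were cut to 4509, their private share averaged 3.16%. ZNF140 did not stand apart from them (p = 0.976, exact permutation test of which list is the one named).

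**Figure D2:**
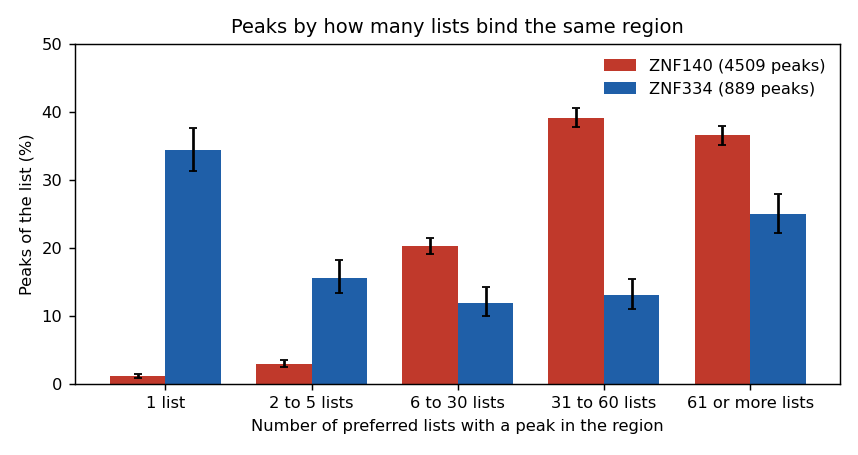
Share of each list's peaks (%, y axis) by the number of preferred lists with a peak in the same region (x axis), ZNF140 in red and ZNF334 in blue, with 95% Wilson intervals as error bars. ZNF334 had 34.4% of its peaks in regions of its own and ZNF140 1.09%, while 36.5% of ZNF140 and 24.97% of ZNF334 peaks lay in regions of 61 or more lists.

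To compare lists of unequal length, each was cut to its 889 strongest peaks, the number ZNF334 has, which left 114 lists. ZNF334 then had 38.02% of peaks in highly bound regions, against 84.0 ± 18.6% (SD, n = 113 lists, median 91.5%) for the others, and 4 of the 113 lay lower. Its private share was 34.4%, against 2.96 ± 8.11% (median 0.337%), and 3 lists lay higher, those of ZNF329, ZNF160 and ZFP90. ZNF140 had 94.9% in highly bound regions, against 83.5 ± 19.1%, and no private peak among its strongest 889 (Wilson upper limit 0.430%), as in 39 other lists with none. In the exact two-sided permutation test of which list is the one named, ZNF334 had p = 0.0877 for highly bound and p = 0.0702 for private regions, and the smallest p that 114 lists allow is 0.0175. Over the 16 tests made (8 measures in each list) none passed after Benjamini-Hochberg adjustment, the smallest adjusted p being 0.702, and 0 had an unadjusted p under 0.05.

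The cut takes the whole of ZNF334 but only the top of most other lists. At the strongest 500, the private share of ZNF334 was 25.4%, against 3.21% on average for 116 other lists. With whole peaks merged rather than their centres it was 19.7%, against 2.01%.

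**Figure D3:**
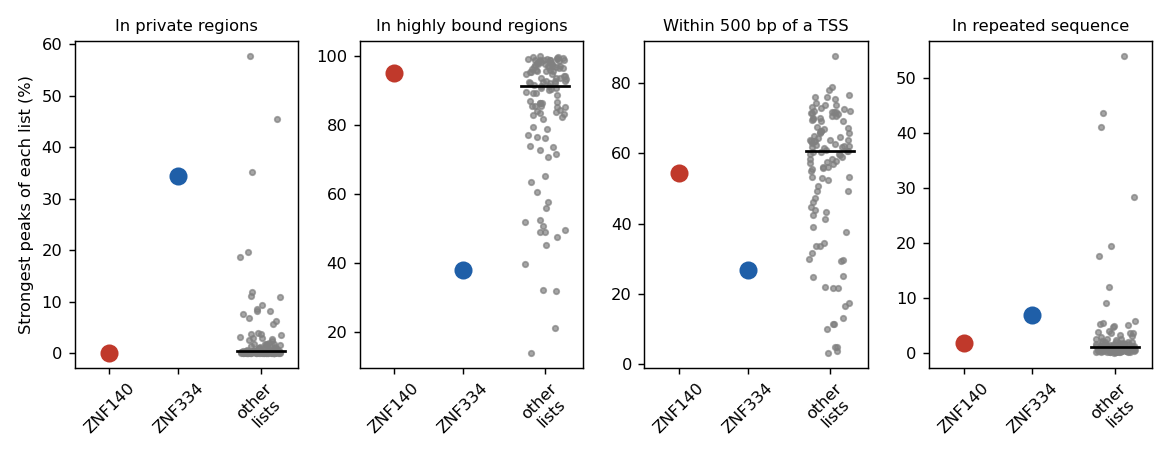
Share (%, y axis) of the 889 strongest peaks of a list that lie in private regions, in highly bound regions, within 500 bp of a TSS and in repeated sequence, for ZNF140 (red), ZNF334 (blue) and each of the 112 other lists (grey, with their median as a line). ZNF334 lay among the upper lists for private (34.4%) and the lower ones for highly bound regions (38.02%), and ZNF140 lay close to the bulk of lists in all 4 panels.

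The private peaks of ZNF334 were not confined to the end of the list, but they were more frequent there. They made up 8.0% of the 50 strongest peaks and 44.8% of those ranked 401 to 889 (219 of 489). Their median rank was 570, against 187.5 for the ZNF334 peaks in regions of 61 or more lists. Their median signal was 38.2, close to the 39.7, 39.5 and 40.4 of ZNF334 peaks in regions of 2 to 5, 6 to 30 and 31 to 60 lists, against 47.4 in regions of 61 or more lists, and the strongest stood at rank 28. By annotation (GENCODE 44) 173 of the 306 private summits lay in introns, 83 between genes, 29 in coding exons, 17 in UTRs and 4 in lncRNA exons, and 16 (5.23%) lay within 500 bp of a TSS. The GC content of these windows around them averaged 56.9%, against 66.8% for the ZNF334 peaks of 61 or more lists. The nearest summit of another list lay at a median distance of 636 bp, within 1000 bp for 184 of the 306 and beyond 10000 bp for 25. In the q column, which the authors' pipeline filled, 801 of all 889 ZNF334 values (90.1%) were below 0, and none of the ZNF140 values was. Among ZNF334 peaks this held for 276 of the 306 private ones, 131 of the 139 in regions of 2 to 5 lists and 182 of the 222 in regions of 61 or more lists. ZNF334 had the seventh largest share of such values of the preferred lists, and the part of this in its private peaks was not tested.

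The strongest private ZNF334 peaks were mostly far from promoters. The first lay between genes with NEK6, a mitotic kinase, as the nearest gene (rank 28, 52151 bp from its TSS). The next were near the lncRNAs ENSG00000260090 (rank 30) and ENSG00000233625 (rank 37) and 30770 bp from the TSS of CCND1, the cell cycle regulator cyclin D1 (rank 47). Others lay 12335 bp from TENT4B, a noncanonical poly(A) polymerase (rank 99), 15662 bp from the lncRNA ENSG00000267665 (rank 100), in an intron of PTGIS, prostacyclin synthase (rank 112), in an intron whose nearest TSS is that of ENSG00000258881 (rank 119), in a UTR where DEXI and CIITA overlap (rank 127) and in an intron of the homeobox gene CUX2 (rank 128). Of these 10 only the CUX2 site lay in repeated sequence, meaning that the 16-mers of the summit window occur a median of 10 or more times in the genome. The signals ran from 79.1 at NEK6 to 50.6 at CUX2.

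The 30 bases centred on the 5 strongest private ZNF334 summits are shown so that the sites can be read. They are given on the plus strand of hg38, in lower case throughout since no part was singled out.
NEK6 (chr9:124205783-124205812, plus strand): ttaggtctgattttcagcacagtctgcctt
ENSG00000260090 (chr4:147019195-147019224, plus strand): tcagcttctcaacatgctactcacactcaa
ENSG00000233625 (chr20:17801662-17801691, plus strand): caaggggacggggtggagcagagcatactg
CCND1 (chr11:69610371-69610400, plus strand): ctcttacaatcagatcctgagcctgatttt
TENT4B (chr16:50140956-50140985, plus strand): tctcagctctgtggctataggagacagaag
Over all 306 private windows the most enriched 8-mer, CTGCACCC on either strand, was found in 8 (2.61%), against 0.163% of the windows 200 bp away, and was picked as the extreme of all 8-mers. A motif was then derived from the ZNF334 peaks in regions of 1 to 5 lists on odd chromosomes and X (100 windows) and scored on the even ones. Its consensus, ANCCCAGCAGCNNC, matched 14 of 345 held-out windows of such peaks (4.06%), against 3.77% of the windows to the side. Among the strongest ZNF334 peaks on even chromosomes 3.78% matched, against 3.78 ± 0.99% of those of the other lists (n = 113, exact permutation p = 0.965). No sequence preference of ZNF334 was thus detectable with this method in this list.

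The chromosomes of ZNF334 peaks were uneven. Chromosome 20 held 198 of its 889 peaks (22.3%), the largest share of the 114 lists, whose others had a median of 12.6% and a maximum of 17.8%, while chromosome 20 makes up 2.09% of the genome. Of the private ZNF334 peaks 95 (31.05%) lay there, against 14.8% of its peaks in highly bound regions. Chromosome 16 held 16.7% and chromosome 14 held 11.1% of the private peaks, against 8.28% and 5.92% of those in highly bound regions. Over whole lists, the private peaks of the other DAPs had a median of 11.3% on chromosome 20, with a range of 2.80 to 35.5%, and 1 list was above ZNF334. Chromosome 17 held 9.15% and 6.80%, while chromosome 2 (8.17% and 13.9%) and chromosome 6 (5.88% and 7.69%) held smaller shares of the private peaks. Together these 6 chromosomes, picked as the ones with most ZNF334 peaks, held 82.0% of the private peaks and 57.4% of those in highly bound regions. The same contrast was seen in ZNF140, with 79.6% of its 49 private peaks (39) and 59.9% of those in highly bound regions. Of the 889 ZNF334 peaks 70.9% lay there, against a median of 61.8% for the strongest peaks of the other lists. ZNF334 stood 8th of the 114 lists in this share. HepG2 is known to carry extra copies of several chromosomes, among them 20, 17, 16, 14 and 2. Copy number was not measured here, and its part in these shares was not tested. With chromosome 20 left out of every list, an alternative chosen after seeing the data, the private share of ZNF334 was 30.5%, against 3.07% on average for the others. Repeated sequence held 12.1% of the private ZNF334 windows and 6.86% of all 889, against a median of 1.01% in the other lists, of which 8 lay higher (exact permutation p = 0.158). Without repeated windows, also chosen after seeing the data, the private share was 32.5%, against 2.35%.

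**Figure D4:**
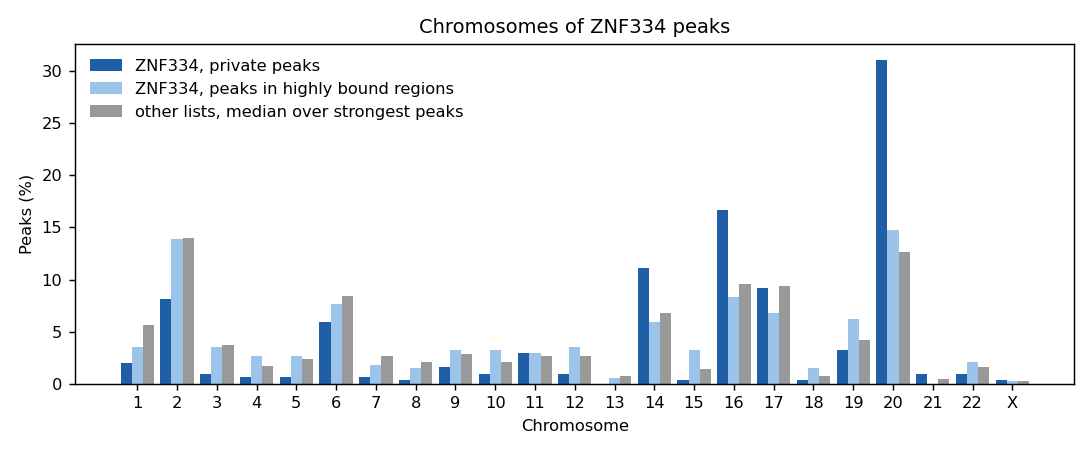
Share of peaks (%, y axis) on each chromosome (x axis) for private ZNF334 peaks (dark blue), ZNF334 peaks in highly bound regions (light blue) and the median of the other lists over their 889 strongest peaks (grey). Chromosome 20 held 31.05% of the private ZNF334 peaks, against 14.8% of those in highly bound regions and 12.6% at the median of the other lists.

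The private peaks of ZNF140 were few and weak. The strongest stood at rank 1228 of 4509, near the lncRNA ENSG00000264112 and in repeated sequence, and the median of the 49 was a signal of 20.6, against 28.8 for the ZNF140 peaks of 61 or more lists. Another list's summit lay within 1000 bp of 45 of the 49, at a median of 173 bp. The next were 21756 bp from VSTM2L (rank 1409), in an intron of DHRS4L2, a short-chain dehydrogenase gene (rank 1503), in a coding exon of TCF7L1, a Wnt pathway transcription factor, with TGOLN2 the nearest TSS (rank 1906), and in an intron of ITPA, inosine triphosphatase (rank 1932). They were followed by sites near LNCATV (rank 2033), KYNU, kynureninase (rank 2183), SMG1-DT (rank 2215), ALKBH7 (rank 2245) and PLEKHM3 (rank 2383). Chromosomes 20 and 2 held 11 of the 49 each (22.4%), against 10.5% and 14.7% of all ZNF140 peaks. The motif derived from the ZNF140 peaks of 1 to 5 lists on odd chromosomes, CACACTGCCNT, rested on 52 windows and matched 5 of 129 held-out windows (3.88%), against 2.71% to the side. Among the strongest ZNF140 peaks on even chromosomes it matched 6.11%, against 4.01% to the side and 5.53 ± 1.31% for the other lists (n = 113, exact permutation p = 0.649).

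Known elements, chosen for counting after the summit sequences had been seen, differed in how often they were found at ZNF140 summits and beside them. The CTCF motif, the site of the insulator protein CTCF, was matched with no more than 1 mismatch at 224 of 4509 ZNF140 summits (4.97%), against 0.699% to the side. Among the 889 strongest it was found at 3.60% (interval 2.56 to 5.04), against a median of 1.91% over the other lists and 2.47% of all regions. It was most frequent at the ZNF140 peaks of 6 to 30 lists, 87 of 915 (9.51%). The ETS motif ACTTCCGG, a promoter element bound by ETS factors, was found at 38 of the 889 strongest ZNF140 summits (4.27%, interval 3.13 to 5.81), against 0.956% to the side, 1.57% at the median of the other lists and 0.304% of all regions, and 104 of its 105 ZNF140 matches lay in highly bound regions. The C/EBP motif TTGCACAA with up to 1 mismatch was found at 10.1% of these summits and 5.79% beside them, the E-box CACGTG at 8.10% and 1.97%, and the HNF4 motif CAAAGTCCA with up to 1 mismatch at 5.40% and 2.02%. Over all regions these came to 7.96%, 2.62% and 4.73%, and at the median of the other lists to 4.27%, 8.32% and 2.92%, so that the E-box share of ZNF140 was not above that of most lists. The CCAAT box was found at 6.64% of these summits and 9.96% beside them, and the GC box GGGCGGGG at 3.94% and 5.57%. At ZNF334 summits and beside them the shares were 1.24% and 0.900% for the CTCF motif, 0.337% and 0.506% for the ETS motif, 4.39% and 5.17% for the C/EBP motif. The E-box was found at 4.50% of ZNF334 summits and at 2.42% of the windows beside them, and the HNF4 motif at 1.80% and 2.02%.

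The 3 strongest ZNF140 peaks with a CTCF match outside highly bound regions and the 3 strongest with an ETS match at a TSS are shown, hg38, with the match in capitals, to let the elements be read.
RHBDF2 (chr17:76506527-76506556, minus strand): tcttctcgCCACCAGATGGCGAtcccgcat
SCAF8 (chr6:154675792-154675821, plus strand): cagtgtgaCCAGCAGATGGCATtagagtcc
TMEM186 (chr16:8792066-8792095, minus strand): atgcagtaCCAGCAGAGGGCACacagagca
FASTKD5 (chr20:3159858-3159887, plus strand): ctcacagccccACTTCCGGccaactgcccg
AAR2 (chr20:36236450-36236479, plus strand): aaagctggagaACTTCCGGtgcgtttccgc
PSMF1 (chr20:1118585-1118614, plus strand): ctgttgggactACTTCCGGcttccccgccc
FASTKD5 encodes a mitochondrial RNA-processing protein, AAR2 a splicing factor and PSMF1 a proteasome inhibitor.

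ZNF140 was the more promoter-bound of the pair. Among the 889 strongest peaks 54.2% of ZNF140 summits (interval 50.9 to 57.5) lay within 500 bp of a TSS, against 54.0 ± 19.9% for the other lists (exact permutation p = 0.702). The same share of ZNF334 was 26.8% (23.97 to 29.8), against 54.2 ± 19.7% (p = 0.281). Its summits lay in introns in 48.3%, against a median of 33.9% in the other lists, and ZNF140 summits in 35.0%. Over whole lists ZNF140 had a summit at the TSS of 1993 of 20033 protein-coding genes (9.95%) and ZNF334 at 213 (1.06%). Counting lncRNAs as well, 120 genes had both at the TSS, which is 4.76% of the 2523 genes of ZNF140 and 44.4% of the 270 of ZNF334. Of all 38899 genes 6.49% had a ZNF140 summit at the TSS and 0.694% a ZNF334 summit. Only 200 of the ZNF140 genes and 48 of the ZNF334 genes had one outside highly bound regions. Whether the pair shares more promoters than other lists do was not tested.

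The promoter peaks with the highest signal in highly bound regions included neuronal genes in both lists. For ZNF140 they were those of XKR7, HTR5A, STMN3 (a neuronal stathmin), GLRA1 (a glycine receptor subunit) and CHGB (chromogranin B, of secretory granules), all with an RE1 match. For ZNF334 they included XKR7, HTR5A, RANBP3-DT and BARHL1 (a neural homeobox gene), and RE1 was matched at XKR7, HTR5A and BARHL1. The promoters named here for both lists lay in regions of 100 (STMN3) to 120 (XKR7) of the 121 preferred lists. Outside highly bound regions the strongest ZNF334 promoter peak was at JUN, the AP-1 subunit, 417 bp from the TSS in its UTR (rank 125, signal 51.3, 4 lists). It was followed by 3 private ones, at REC8, a meiotic cohesin (rank 138), TSC1, a brake on mTOR signalling (rank 144), and TBX6, a mesodermal T-box factor (rank 145). The others were ENSG00000254501, EPOP (a Polycomb partner), MICOS13 (of mitochondrial cristae), ANKRD39, ENSG00000290393 and SLC41A2 (a magnesium transporter), with ranks of 153 to 261. In all, 48 genes had a ZNF334 promoter peak outside highly bound regions, 14 of them in private ones. For ZNF140 the count was 200 genes, 2 of them in private regions. Its strongest were ADAMTSL4-AS1 (rank 252, signal 43.3, 22 lists), ZC3H12D, an RNA-degrading regulator of inflammation (rank 795, 21 lists), CHST15, a sulfotransferase (rank 823, 15 lists), ENSG00000291073 (rank 839, 3 lists), ENSG00000287978, NCOA6 (a nuclear receptor coactivator), CHD6 (a chromatin remodeller), NHSL1-AS1, ENTR1 and ENSG00000292256, the last at rank 1074.

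Zinc finger genes are a known target of the family, and ZNF140 had peaks at their promoters about as often as at all coding promoters. ZNF140 had a peak at 58 of 558 C2H2 zinc finger promoters (10.4%), beside the 9.95% of all coding promoters, and ZNF334 at 2 (0.358%, beside 1.06%), those of ZNF143 and ZNF792. Of the ZNF140 ones 8 lay outside highly bound regions, led by ZNF585A (rank 1187, 12 lists), ZNF268 (rank 1530, 20 lists), ZNF649, ZNF300 and ZNF615. In the bodies of such genes lay 0.787% of the strongest summits of each member (7 each), against 1.24 ± 0.495% for the other lists (exact permutation p = 0.439). Chromosome 19, which carries most KRAB zinc finger clusters, held 3.49% of the strongest ZNF140 peaks and 4.61% of those of ZNF334, against 4.45 ± 1.72% and 4.44 ± 1.72% for the other lists (p = 0.509 and 0.737, exact permutation tests). Neither protein had a peak within 10 kb of its own gene. The nearest ZNF140 summit lay 94647 bp from the TSS of ZNF140, and the nearest ZNF334 summit 68358 bp from that of ZNF334. Of the 121 preferred lists, 33 had a peak at the ZNF140 promoter and 19 at that of ZNF334. ZNF140 had a peak at 9.95% and ZNF334 at 1.06% of all coding promoters, so a promoter without one is the common case in both lists.

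Of the other gene lists, those of proteasome and ribosomal protein genes had the largest shares of promoters with a ZNF140 peak. ZNF140 had a peak at 14 of 30 proteasome promoters (46.7%), such as PSMD3 (rank 91) and PSMA6 (rank 390), and at 29 of 86 ribosomal protein promoters (33.7%), such as RPS7 (rank 43) and RPL37 (rank 349). At its 889 strongest peaks these counts were 5 and 7, against medians of 2 and 6 over the other lists. Beside the 9.95% of all coding promoters, it also had a peak at 6 of 24 hepatocyte genes (25%), among them APOB, FGA and APOE, at 3 of 14 immediate early genes (21.4%, JUNB, IER3 and IER2) and at 3 of 20 neuronal genes (15%, VGF, SCG3 and CHGA). Only 1 of these hepatocyte genes, and none of the others, had its peak outside highly bound regions. At its 889 strongest peaks ZNF140 had 1 gene of each of these kinds, against medians of 1, 0 and 1 over the other lists. Closer to the 9.95% were 8 of 69 replication-dependent histone genes (11.6%) and 1 of 15 KRAB corepressor genes (6.67%), DNMT1. It had none at 53 clustered protocadherin, 39 HOX or 400 olfactory receptor genes. Nor did most lists, the median over the others at 889 peaks being 0 for each of these kinds and the maximum 2, 1 and 0. Beside the 1.06% of all coding promoters, ZNF334 had a peak at 2 of 30 proteasome (PSMD3, PSMD2), 2 of 20 neuronal (SCG3, VGF), 1 of 69 histone (H4C3), 1 of 39 HOX (HOXA4), 1 of 16 cholesterol (CYP51A1) and 1 of 14 immediate early promoters (JUN). It had none at the 24 hepatocyte, 15 corepressor, 53 protocadherin or 400 olfactory receptor genes. At 889 peaks the other lists had medians of 2 proteasome, 1 neuronal, 3 histone and 1 hepatocyte genes. Their medians were 0 for HOX, cholesterol and immediate early genes.

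The pair shared few sites with each other, as ZNF334 did with every list. Summits within 50 bp were found for 71 peaks, which is 1.57% of ZNF140 and 7.99% of ZNF334, and 70 of the 71 lay in highly bound regions. No peak in regions of 2 to 5 lists was shared, where ZNF140 had 132 and ZNF334 139, and the number expected was not computed. Private peaks cannot tell whether the pair shares sites, since summits within 50 bp would almost always merge into a region no longer private. Among the strongest 889, ZNF140 was most like ZNF544, with 375 peaks in common and a Jaccard index of 0.267, then NPAS2 (0.211), EBF1 (0.187), E2F7 (0.177) and ZNF571 (0.174), against a median of 0.1003 over 113 lists. The first 4 of these share its input library. Over the 11 lists of that input the median was 0.167 (0.0484 to 0.267) and over the 102 of other inputs 0.0948 (0.000560 to 0.174). The part of the shared input in these values was not tested. ZNF334 was close to no list. Its highest indices were 0.0428 with CAMTA1 and with ZIM2, 0.0422 with ZNF827 and 0.0404 with ZNF222 and with ZNF704, against a median of 0.0325. The index of the pair with each other was 0.0319, close to this median. It ranked 59th of the 113 lists for ZNF334 and 103rd for ZNF140.

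**Figure D5:**
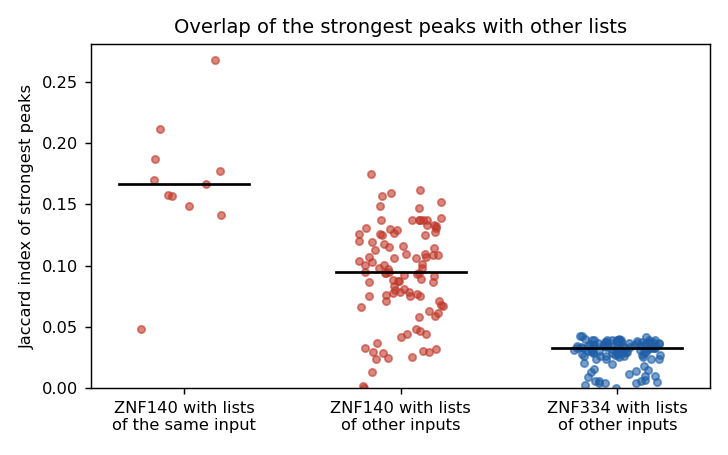
Jaccard index (y axis) of the 889 strongest peaks, summits within 50 bp, of ZNF140 (red) with the 11 lists of the same input library and the 102 of other inputs, and of ZNF334 (blue) with all 113, each point being 1 list and the line the median. The ZNF140 medians were 0.167 and 0.0948, and no list reached 0.05 with ZNF334.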

How the data were processed

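Peak lists of 127 FLAG-tagged DAPs in HepG2 were used, of which 121 are preferred by the study. The 24 input samples were used only to tell which lists have a common control. The authors ran the ENCODE pipeline for ChIP-seq (hg38) and deposited its optimal peaks against input. Aligner and peak caller: not given in the sources used here. The deposited signal is the peak's enrichment, the deposited score (540 or more) follows reproducibility, and the deposited q column was treated as a score, since 42 preferred lists hold negative values.

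Peaks were ranked by signal. Regions merged the central 100 bp of preferred peaks. TSS and gene bodies came from GENCODE 44 (38899 genes, window 500 bp). Summit windows were 50 bp to either side, with flanks centred 200 bp away. Motifs were 14 bp wide, seeded by 8-mers, with a score that 2% of flank windows pass. Which of the lists is the one named was permuted exactly, two-sided, with Benjamini-Hochberg adjustment over 16 tests. The code was tested on simulated data. Python 3.11.15, numpy 2.4.6, pandas 2.3.3, scipy 1.17.1 and numba 0.67.0 were used.

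The members and the gene lists were chosen with earlier results of these data known. Genes named are the nearest TSS of the 10 strongest private peaks, of the 10 strongest TSS peaks outside and the 5 inside highly bound regions and of the 5 strongest shared peaks, plus the members' own genes and up to 5 per gene list, with the 5 most similar lists. Some genes the rule names are not reported here. Windows with the derived motifs are not printed. Matches were about as frequent beside the ZNF334 summits, and the ZNF140 motif was about as frequent at the summits of other lists. Which proteins carry a KRAB domain was taken from general knowledge. Alternatives were the number of peaks, the ranking, the set of lists, the merging, the thresholds and the windows.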

Additional observations from a re-analysis of the deposited data

How the results depend on the processing

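Of 140 alternative values, 123 kept their direction and their side of the threshold, and no test passed after adjustment under any of them. The 16 that turned direction all concern measures whose main test gave an unadjusted p of 0.561 or more (exact permutation test). The TSS share of ZNF140 lay below the mean of the others with as many peaks as ZNF140 has (46.8%, against 51.1%). It also did so among TF lists or KRAB lists only (54.2% each, against 54.4% and 58.2%). The same was found with a TSS window of 1000 bp (57.3%, against 59.9%) and with coding TSS only (48.4%, against 49.4%). Against lists of the same input only, its GC content (62.0%, against 60.7%) and repeated share (1.80%, against 1.10%) lay above the mean of the others. Its own-motif share lay below their mean there (6.11%, against 6.13%). At a stricter motif score it lay below the mean of all other lists (4.71%, against 4.85%). For ZNF334 the share on chromosome 19 lay below the mean at the strongest 500 (4.60%) and in whole lists (4.61%), and the own-motif share did so at the strongest 500 (3.36%), among TF or KRAB lists (3.78% each), with windows of 100 bp to either side (7.09%) and with the motif derived on even chromosomes (1.97%). The Jaccard index of ZNF334 with CAMTA1 moved to 0.0628 with summits within 200 bp, where the highest was 0.0724, with ZNF85.

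The private share of ZNF334 ran from 19.7 to 34.4% and its highly bound share from 24.97 to 53.0% over the alternatives, on the same side of the other lists in each. The smallest unadjusted p of any alternative was 0.0165, for the private share of ZNF140 over whole lists (adjusted p = 0.264, exact permutation test). With the other lists cut to as many peaks as ZNF140 has, the p for this share was 0.976 in the same test. Leaving out chromosome 20 or repeated windows was chosen after seeing the data. No paired analysis was possible because each protein has 1 list and no replicate. What limits these results is the single list per protein and the unknown depth.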
